A study of Mus musculus with 22 samples.

Results

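Fat is made in the adipocyte by joining acetyl units into fatty acids and by attaching 3 fatty acids to a glycerol backbone. The genes described here are the enzymes and regulators of both routes, 35 genes named by a fixed list, from the citrate carrier at the start to the diacylglycerol acyltransferases at the end. A gene was kept where its probe was well above background in Cy5 on at least 10 of 22 arrays. That left 33 of the 35 genes, among 16602 genes tested in all. Elovl3, a fatty acid elongase, was above background on 0 arrays, and Gpd1l, a relative of glycerol-3-phosphate dehydrogenase, on 7, so neither was tested.

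The samples were the epididymal white fat pads of 22 mice, all males of the inbred strain C57BL/6JOlaHsd, housed singly from 10 weeks of age. Per the labels, every mouse was fed a low-fat purified diet (10% of the energy as fat) for 3 weeks and a high-fat one (40%) for the next 6 weeks, and food was withheld before the exposure. The treatment text also contrasts low-fat with high-fat feeding but names no mice for it, and diet is in no fit here. The 12 normoxia mice stayed at 20.9% oxygen and the 10 hypoxia mice were kept at 12% oxygen, both for 6 hours in a calorimetry system, and the study asked how fat tissue adapts to short oxygen restriction. Each value is the log2 ratio of a mouse to a pool of all samples. The ratio has no absolute scale, so that levels of different genes are not compared.

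In white fat, citrate leaves the mitochondrion, is split to acetyl-CoA by ATP citrate lyase, is carboxylated by acetyl-CoA carboxylase and is built into palmitate by fatty acid synthase. Elongases and desaturases then reshape the chain. The transcription factors SREBP-1c, made from Srebf1, and ChREBP, made from Mlxipl, raise the genes of this route after insulin and carbohydrate, and the route is low in fasting. The glycerol backbone comes from glycolysis through Gpd1 or, in the fasted state, from pyruvate through Pck1. GPAT, AGPAT and DGAT enzymes add the acyl chains in turn, and the lipins, which are phosphatidate phosphatases, act before DGAT.

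The arrays lay on 6 slides. The share of spots above background in Cy5 ran from 15.6% to 76.8%, with all 4 arrays of slide 1 (normoxia 3 and 5, hypoxia 5 and 7) under 19%. All 13 adipocyte markers were measured, with a mean log2 ratio, centred over mice, of -0.01 ± 0.26 (SD, n = 12) in normoxia and 0.01 ± 0.26 (SD, n = 10) in hypoxia. The ranges of the mean levels overlapped for every marker list, including macrophage, endothelial, mesothelial, progenitor and sperm markers. The 4 measured red blood cell markers had a mean of -0.20 ± 0.38 (SD, n = 12) in normoxia against 0.24 ± 0.39 (SD, n = 10) in hypoxia.

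After 6 hours at 12% oxygen, no lipid synthesis gene passed the threshold. In limma's fit, 0 of 33 members had an adjusted p under 0.05, and their smallest adjusted p was 0.746. The same was true of all genes: 0 of 16602 passed (0%), with a smallest adjusted p of 0.0692. At an unadjusted p under 0.05, 2 members were lower in hypoxia, where 2.73% of all genes were, and 0 members were higher, where 2.57% of all genes were. The 2 were Mlxipl and Gpam. The values of the groups overlapped for all 33 members.

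The differences were small as well as uncertain. On the log2 scale they ran from -0.28 for Gpam to 0.22 for Scd2. Their median was -0.06, with 21 members below 0 and 12 above, and the median over all genes was 0.001, with 50.4% of genes above 0. In the brightest probe, the 95% interval of a single member's difference lay within 1.5-fold of no change in both directions for 31 of the 33 members. The exceptions were Scd2, with an upper bound of 0.65, and Fads2, with an upper bound of 0.59. These intervals are not adjusted for the number of members, and the offset used draws dim probes towards 0. They also leave out further probes, such as a second Pnpla3 probe at -0.36 ± 0.15 (SE) and an Me1 probe at 0.49 ± 0.37 (SE). Pnpla3 and Me1 are thus bounded in their brightest probe only.

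**Figure D1:**
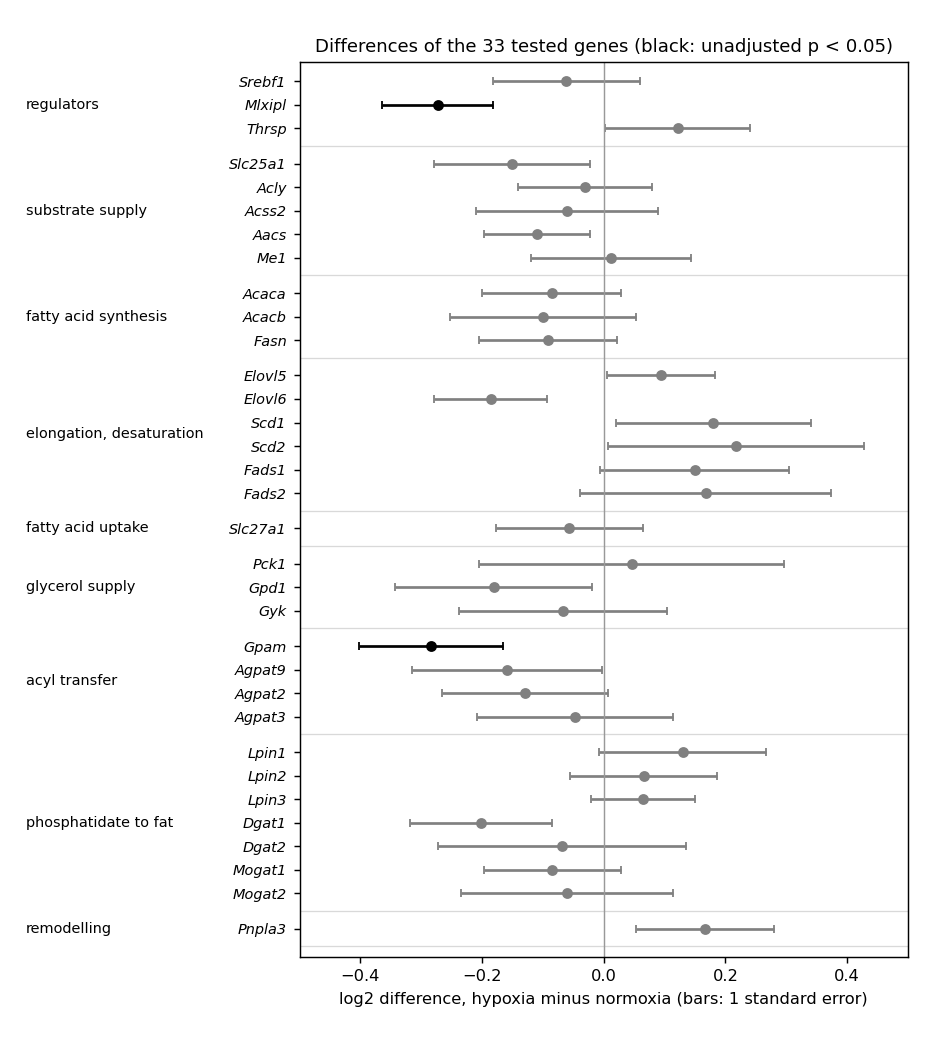
Log2 difference of hypoxia minus normoxia for the 33 tested genes, ordered by their step in the route, with bars of 1 standard error (12 normoxia and 10 hypoxia mice). Mlxipl and Gpam, in black, are the 2 genes with an unadjusted p under 0.05, and 21 of the 33 points lie below 0.

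Mlxipl, the carbohydrate-responsive factor ChREBP, had the smallest p of the members. Its log2 ratio was -0.01 in the lowest, 0.27 in the median and 0.62 in the highest of the 12 normoxia mice. In the 10 hypoxia mice it was -0.23, -0.04 and 0.30. In hypoxia 9 of 10 mice lay below the normoxia mean, and the upper part of the hypoxia range overlapped with the lower part of the normoxia range. The difference was -0.27 ± 0.09 (SE), with an unadjusted p of 0.00556 and an adjusted p of 0.746 in limma's fit. It was below 0 within each of the 5 slides that carry both groups, from -0.63 to -0.10. A second Mlxipl probe, above background on all 22 arrays, gave -0.12 ± 0.12 (SE) with an unadjusted p of 0.299 in limma's fit on all probes. Between mice the ratios of these 2 probes, less group means, correlated at r = -0.07, so the probes did not rank the mice alike.

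Srebf1, the other lipogenic factor, had a smaller difference, and the differences of these genes were not tested against each other. Its ratio was -1.12, -0.12 and 0.28 in the lowest, median and highest normoxia mouse, and -0.47, -0.20 and 0.20 in hypoxia. Normoxia 6 held the lowest value and stood far under the other mice. The difference was -0.06 ± 0.12 (SE, unadjusted p = 0.618 in limma's fit), and its sign turned under 2 normalizations. Its 95% interval, from -0.31 to 0.19, held the -0.27 of Mlxipl. Thrsp, the lipogenic cofactor Spot 14, ran from -0.57 to 0.53 in normoxia and from -0.17 to 0.40 in hypoxia, with a difference of 0.12 ± 0.12 (SE).

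Promoters of both factors and of their textbook target Fasn are shown with regulatory motifs marked. The promoters of Gpam are added because this gene had the largest difference and followed Srebf1 between mice. Each is the stretch of 250 bases before an annotated start in RefSeq (GRCm38.p6), written 5′ to 3′ on the gene's strand, and a gene with several starts has several windows. Capitals mark CCAAT (the box bound by NF-Y), CACGTG (an E-box) and TCACNCCAC (a sterol regulatory element) on either strand.
Fasn (chr11:120824548-120824797, minus strand): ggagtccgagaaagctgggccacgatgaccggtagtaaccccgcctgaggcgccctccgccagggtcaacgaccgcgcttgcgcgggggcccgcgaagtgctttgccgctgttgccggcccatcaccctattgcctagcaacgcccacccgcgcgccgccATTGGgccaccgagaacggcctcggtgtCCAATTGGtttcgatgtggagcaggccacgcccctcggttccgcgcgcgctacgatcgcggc
Mlxipl, window 1 (chr5:135106641-135106890, plus strand): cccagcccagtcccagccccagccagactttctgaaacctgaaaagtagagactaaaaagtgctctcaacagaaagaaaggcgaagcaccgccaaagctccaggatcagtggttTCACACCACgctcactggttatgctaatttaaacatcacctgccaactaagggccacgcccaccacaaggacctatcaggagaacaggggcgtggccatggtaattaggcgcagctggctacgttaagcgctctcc
Mlxipl, window 2 (chr5:135089640-135089889, plus strand): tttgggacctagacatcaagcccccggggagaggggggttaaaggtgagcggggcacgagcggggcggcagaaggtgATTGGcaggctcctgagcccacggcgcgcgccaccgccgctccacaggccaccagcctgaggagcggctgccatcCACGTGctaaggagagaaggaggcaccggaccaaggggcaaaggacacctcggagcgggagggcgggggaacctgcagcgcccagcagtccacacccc
Srebf1, window 1 (chr11:60222582-60222831, minus strand): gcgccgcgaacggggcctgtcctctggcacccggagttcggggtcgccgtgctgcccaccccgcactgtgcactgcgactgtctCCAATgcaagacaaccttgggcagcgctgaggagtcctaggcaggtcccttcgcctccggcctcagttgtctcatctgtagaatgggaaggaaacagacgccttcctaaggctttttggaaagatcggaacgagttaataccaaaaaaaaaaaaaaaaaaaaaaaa
Srebf1, window 2 (chr11:60220628-60220877, minus strand): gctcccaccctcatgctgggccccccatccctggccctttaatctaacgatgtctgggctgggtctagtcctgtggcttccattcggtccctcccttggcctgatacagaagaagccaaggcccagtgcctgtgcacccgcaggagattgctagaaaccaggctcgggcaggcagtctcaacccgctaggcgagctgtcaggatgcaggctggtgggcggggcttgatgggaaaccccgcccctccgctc
Srebf1, window 3 (chr11:60210472-60210721, minus strand): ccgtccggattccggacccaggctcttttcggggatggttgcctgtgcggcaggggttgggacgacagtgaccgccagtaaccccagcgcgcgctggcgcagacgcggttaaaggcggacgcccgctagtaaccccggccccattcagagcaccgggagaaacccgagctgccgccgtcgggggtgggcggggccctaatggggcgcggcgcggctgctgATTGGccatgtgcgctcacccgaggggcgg
Gpam, window 1 (chr19:55127239-55127488, minus strand): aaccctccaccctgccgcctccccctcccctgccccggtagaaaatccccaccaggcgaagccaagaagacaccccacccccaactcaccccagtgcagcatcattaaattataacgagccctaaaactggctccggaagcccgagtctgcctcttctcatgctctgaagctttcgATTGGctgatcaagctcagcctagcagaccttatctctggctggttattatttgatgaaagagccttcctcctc
Gpam, window 2 (chr19:55099478-55099727, minus strand): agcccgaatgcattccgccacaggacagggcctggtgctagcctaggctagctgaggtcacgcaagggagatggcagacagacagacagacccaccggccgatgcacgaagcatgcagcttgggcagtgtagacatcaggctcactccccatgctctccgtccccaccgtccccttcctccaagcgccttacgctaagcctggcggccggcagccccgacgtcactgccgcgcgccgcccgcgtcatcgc

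The Fasn window held 3 CCAAT boxes on the 2 strands, with 2 of them overlapping, and the nearest ended 54 bases before the start. The windows of Fasn, Srebf1 and Gpam held no E-box and no sterol element. In window 2 of Srebf1 and window 2 of Gpam there was no CCAAT box either. In Mlxipl, window 2 held the E-box and a CCAAT box, and window 1 held the sterol element. That was the only sterol element in the 37 windows of the 27 members with a promoter in the table, against 1.05% of all 32851 windows. An E-box was present in 7 of the 37 windows (18.9%), in Elovl5, Mlxipl, Slc25a1, Lpin2, Gpd1l, Gyk and Slc27a1, against 6.02% of all windows. CCAAT was present in 16 (43.2%, against 33.8%), and the GC box GGGNGG, not capitalised, in 27 (73%, against 64.5%). A match is a run of letters and not a binding site.

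The tested members that supply carbon and reducing power to the route had small differences, 4 of 5 below 0. None had an unadjusted p under 0.05 in limma's fit. Slc25a1, the mitochondrial citrate carrier, was at -0.60, -0.15 and 0.46 in the lowest, median and highest normoxia mouse and at -0.53, -0.28 and 0.23 in hypoxia. The difference was -0.15 ± 0.13 (SE). It ran from -0.61 to 0.47 between slides, so that its spread over slides was larger than the difference itself.

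Acly, which splits citrate to acetyl-CoA, ran from -0.53 through a median of -0.10 to 0.68 in normoxia and from -0.44 through -0.04 to 0.13 in hypoxia. The hypoxia values lay inside the normoxia range, and the difference was -0.03 ± 0.11 (SE). Aacs, the acetoacetyl-CoA synthetase that turns ketone bodies into lipid precursors, was at -0.29, -0.09 and 0.41 in normoxia and at -0.30, -0.09 and 0.04 in hypoxia. The medians were alike, 9 of 10 hypoxia mice lay below the normoxia mean, and the difference was -0.11 ± 0.09 (SE). Acss2, the cytosolic acetyl-CoA synthetase, differed by -0.06 ± 0.15 (SE).

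Me1, the malic enzyme that makes NADPH, differed by 0.01 ± 0.13 (SE) in its brightest probe. Its other probes gave -0.25 ± 0.16 (SE) and 0.49 ± 0.37 (SE). In the last of these a single hypoxia mouse reached a log2 ratio of 4.51, while the hypoxia median was 0.05 and the normoxia mice ran from -0.40 to 0.60. That probe correlated with the brightest one at r = 0.01 between mice, and the remaining one at r = 0.65.

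The core of fatty acid synthesis did not differ between the groups beyond the spread of the mice. Fasn, fatty acid synthase, had ratios of -0.28, 0.01 and 0.34 in the lowest, median and highest normoxia mouse and of -0.59, -0.01 and 0.40 in hypoxia. The hypoxia mice spread beyond the normoxia mice on both sides, with 5 of 10 below the normoxia mean. The difference was -0.09 ± 0.11 (SE), with a 95% interval from -0.32 to 0.14 and an unadjusted p of 0.43 in limma's fit. Acaca, the carboxylase that makes malonyl-CoA for synthesis, ran from -0.80 through -0.10 to 0.46 in normoxia and from -0.41 through -0.16 to 0.26 in hypoxia, a difference of -0.09 ± 0.11 (SE). Its other 2 tested probes also lay below 0, at -0.14 and -0.16. Acacb, the isoform that makes malonyl-CoA at the mitochondrion, differed by -0.10 ± 0.15 (SE).

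**Figure D2:**
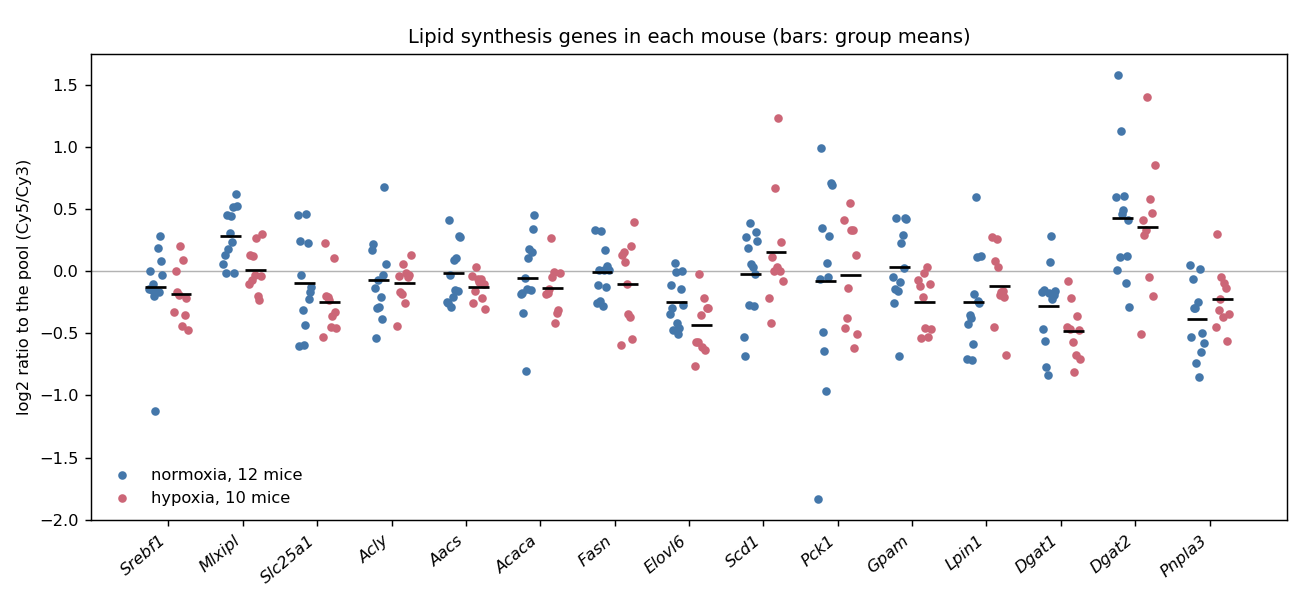
Log2 ratio to the pool for 15 lipid synthesis genes, 1 point a mouse, blue for 12 normoxia and red for 10 hypoxia mice, with bars at the group means. The groups overlap in every gene, Pck1 runs from -1.83 to 0.99 between normoxia mice, and 10 of 10 hypoxia mice lie below the normoxia mean for Gpam.

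Among the enzymes that lengthen and desaturate the chain, 5 of 6 tested members were above 0 and Elovl6 was below, with a median of 0.16. None passed at an unadjusted p of 0.05. Elovl6, which lengthens palmitate to stearate, was at -0.50, -0.28 and 0.07 in normoxia and at -0.76, -0.46 and -0.02 in hypoxia. The differences within the 5 slides were all below 0, from -0.30 to -0.06, with 8 of 10 hypoxia mice below the normoxia mean. The difference was -0.19 ± 0.09 (SE), with an unadjusted p of 0.0572 and an adjusted p of 0.951 in limma's fit.

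Scd1, the stearoyl-CoA desaturase of adipocytes, was at -0.68, 0.05 and 0.39 in normoxia and at -0.42, 0.02 and 1.23 in hypoxia. The medians were close and the hypoxia mean was raised by hypoxia 7, which lies on slide 1. The difference was 0.18 ± 0.16 (SE) and was below 0 without slide 1. Scd2, a second stearoyl-CoA desaturase, differed by 0.22 ± 0.21 (SE), and mice of either group ran over a log2 range from -0.76 to 1.19. Fads1 and Fads2, which desaturate polyunsaturated fatty acids, differed by 0.15 ± 0.15 (SE) and 0.17 ± 0.21 (SE). The Fads2 probe was above background on 10 of 22 arrays and was designed on a cDNA clone, and a second Fads2 probe was above background on 1 array. Elovl5, the elongase of polyunsaturated chains, differed by 0.09 ± 0.09 (SE).

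Pck1, phosphoenolpyruvate carboxykinase of glyceroneogenesis, had the largest within-group SD of the members over both groups together. Among the hypoxia mice alone its SD of 0.44 was below those of Scd2 (0.58), Dgat2 (0.54), Fads2 (0.50) and Scd1 (0.47). Its ratio was -1.83, 0.01 and 0.99 in the lowest, median and highest normoxia mouse and -0.62, -0.002 and 0.55 in hypoxia. The hypoxia mice all lay inside the normoxia range. The difference was 0.05 ± 0.25 (SE), its sign turned without slide 1, and its interval from -0.47 to 0.56 is the widest of the members. Gpd1, which makes glycerol 3-phosphate from a glycolytic intermediate, differed by -0.18 ± 0.16 (SE), and Gyk, glycerol kinase, by -0.07 ± 0.17 (SE). Slc27a1, a fatty acid transporter with acyl-CoA synthetase activity, differed by -0.06 ± 0.12 (SE).

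The tested members among the acyltransferases that load the glycerol backbone were all below 0, 4 of 4, with a median of -0.14. Of all genes, 50.4% lay above 0. Among GPAT and AGPAT genes outside the list, Gpat4 and Agpat5 lay above 0 (0.04 and 0.13), and Agpat1 and Agpat4 below (-0.15 and -0.12). Gpam, the mitochondrial GPAT of the first step, was at -0.68, -0.01 and 0.43 in normoxia and at -0.54, -0.17 and 0.03 in hypoxia. All 10 hypoxia mice lay below the normoxia mean of 0.04, yet within the normoxia range. The probe was above background on 8 of the 10 hypoxia arrays and 10 of the 12 normoxia arrays. The difference was -0.28 ± 0.12 (SE), with an unadjusted p of 0.0237 and an adjusted p of 0.872 in limma's fit, and it was below 0 in 4 of 5 slides. A second Gpam probe ranked the mice alike (r = 0.81) and gave -0.07 ± 0.12 (SE). Agpat9, another GPAT, differed by -0.16 ± 0.16 (SE), Agpat2, the main AGPAT of adipocytes, by -0.13 ± 0.14 (SE), and Agpat3 by -0.05 ± 0.16 (SE).

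Of the last steps, the 3 lipins were above 0 and the 4 DGAT and MOGAT genes below 0, none at an unadjusted p under 0.05. Lpin1, the main phosphatidate phosphatase of fat, was at -0.71, -0.30 and 0.60 in normoxia and at -0.68, -0.16 and 0.28 in hypoxia, a difference of 0.13 ± 0.14 (SE). Of the hypoxia mice, 8 of 10 lay above the normoxia mean. Lpin2 and Lpin3 differed by 0.07 ± 0.12 (SE) and 0.06 ± 0.09 (SE).

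Dgat1, a diacylglycerol acyltransferase that re-esterifies released fatty acids, was at -0.84, -0.18 and 0.28 in normoxia and at -0.81, -0.47 and -0.08 in hypoxia. The difference was -0.20 ± 0.12 (SE, unadjusted p = 0.0945 in limma's fit), with 8 of 10 hypoxia mice below the normoxia mean. Dgat2, the enzyme tied to newly made fatty acids, was at -0.29, 0.43 and 1.58 in normoxia and at -0.51, 0.37 and 1.40 in hypoxia. The ranges were almost the same, and the difference was -0.07 ± 0.20 (SE). Mogat1 and Mogat2, which acylate monoacylglycerol, differed by -0.08 ± 0.11 (SE) and -0.06 ± 0.17 (SE).

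Pnpla3, a lipid droplet protein with lipase and acyltransferase activity, was at -0.85, -0.40 and 0.05 in normoxia and at -0.56, -0.27 and 0.30 in hypoxia. The difference was 0.17 ± 0.11 (SE) and was above 0 in all 5 slides. Its second probe gave -0.36 ± 0.15 (SE), with an unadjusted p of 0.0259 and an adjusted p of 0.88 in limma's fit on all 21470 probes. No direction can be given for Pnpla3 from probes of opposite sign.

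Of the 50 probes of the 35 genes, 44 were tested, and 9 members had more than 1. Fitted on every probe, 0 of 44 passed. The 11 further probes correlated with their gene's brightest probe at a median r of 0.39 between mice, from -0.07 (Mlxipl) to 0.81 (Gpam), and 4 of them exceeded 0.5. Over all genes the median was 0.22 for 4810 further probes, of which 20.4% exceeded 0.5. Me1 and Pnpla3 were the 2 members whose probes had both signs.

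**Figure D3:**
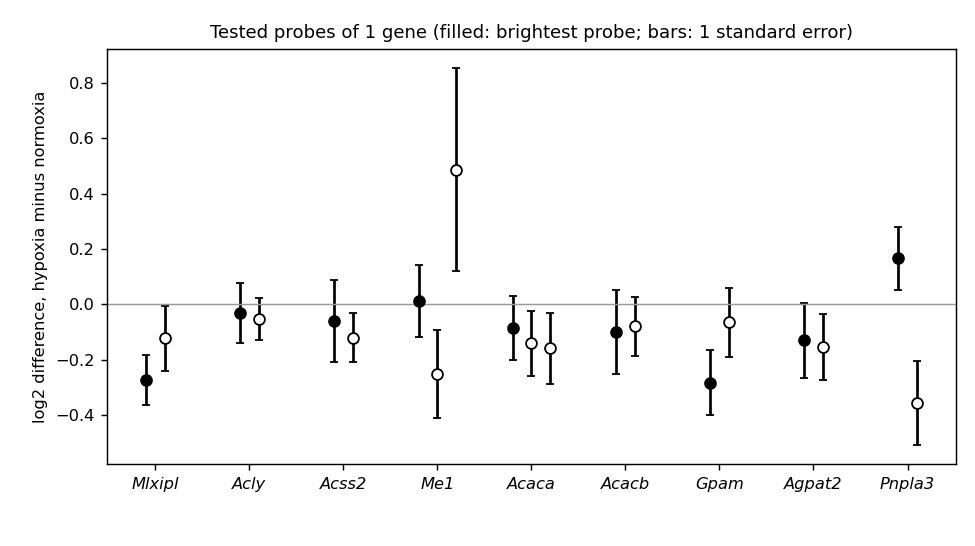
Log2 difference of hypoxia minus normoxia for every tested probe of the 9 members with more than 1, filled for the brightest probe, with bars of 1 standard error. The probes of Pnpla3 lie on opposite sides of 0 at 0.17 and -0.36, and 1 Me1 probe has a standard error of 0.37.

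The wider pathway held as little difference. Of 20 tested regulators of lipogenic transcription, 15 genes of NADPH and citrate supply, 12 of elongation and desaturation, 12 acyl-CoA synthetases and binding proteins and 18 other acyltransferases and glycerol genes, 0 passed the adjusted threshold in each list in limma's fit. At an unadjusted p under 0.05 there were 2 of 77 (2.6%), a smaller share than the 5.3% of all genes. Tkt, the transketolase of the pentose phosphate route, was 0.18 ± 0.22 (SD, n = 12) in normoxia and -0.05 ± 0.26 (SD, n = 10) in hypoxia, a difference of -0.23 ± 0.10 (SE). Hacd4, a dehydratase of fatty acid elongation, was -0.34 ± 0.23 (SD, n = 12) in normoxia and -0.07 ± 0.24 (SD, n = 10) in hypoxia, a difference of 0.27 ± 0.10 (SE). The median differences of the 5 lists lay between -0.0003 and 0.08.

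While the groups differed little, the values within a group differed much. Each mouse had 1 array, so differences between mice and between arrays cannot be told apart here. The offset also draws dim probes towards 0, so an SD depends in part on brightness. The median within-group SD of the members was 0.32 on the log2 scale, against 0.23 over all genes, and 28 of 33 members lay above the median of all genes. Among the top 10% of all genes by SD were 13 members. Pck1 had an SD of 0.66 (98.3rd percentile), Scd2 0.55, Fads2 0.54, Dgat2 0.53, and at the other end Lpin3 0.19 and Aacs 0.19. The standard error of a difference was accordingly larger for the members, with a median of 0.128 against 0.098 over all genes.

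How far this variation was shared along the route of fatty acid synthesis was read from Fasn. Fasn correlated, less group means over 22 mice, at r = 0.25 with Acly, 0.20 with Acaca, 0.03 with Elovl6, -0.15 with Scd1 and -0.27 with Srebf1. The rank correlations of these 5 pairs ran from -0.18 to 0.25, and their unadjusted permutation p from 0.188 to 0.885. Slc25a1, the citrate carrier, was closer to Fasn, at r = 0.41 and rho = 0.47 (permutation p = 0.039 and 0.0219, and 0.367 and 0.273 adjusted over the 128 relations of 4 genes with the members), with 0.37 without the 2 mice farthest in Fasn and 0.59 within slides. With Fasn as a term in limma's fit, 0 of 32 members followed it, as did 0 of 16601 genes (0%). The highest member by Pearson's r was Scd2, at r = 0.54 and rho = 0.50 (permutation p = 0.0145 and 0.0234, adjusted 0.281 and 0.273). That r was 0.38 without the 2 mice farthest in Fasn and 0.76 within slides, and it was 0.12 over the normoxia mice and 0.83 over the hypoxia mice, a difference that was not tested. By rank the highest was Agpat2, at rho = 0.61 and r = 0.37 (permutation p = 0.00373 and 0.0647, adjusted 0.17 and 0.471), with r = 0.26 without the 2 farthest mice. Within slides 5 members had r above 0.5 with Fasn: Scd2, Dgat2 (0.73), Agpat2 (0.61), Slc25a1 and Gpd1 (0.54). Scd2 took rank 106 of 16506 among all genes by its r with Fasn, and the 10 closest genes outside the list were Rgs5, Fmr1, Amhr2, Mrap, Coasy, Mfsd7a, Rexo2, Cav2, Rnase6 and Cyb5b, with r from 0.74 down to 0.65.

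Srebf1 was followed by 1 of 32 members, Gpam. In limma's fit 2.11% of all genes followed Srebf1 upwards and 1.86% downwards. Gpam correlated with Srebf1 at r = 0.68 and rho = 0.53 (permutation p = 0.00147 and 0.0114, and 0.188 and 0.244 adjusted over the 128 relations), with an adjusted p of 0.0268 in limma's fit. The relation rested in part on normoxia 6, the mouse with the lowest Srebf1: r was 0.46 without it and 0.54 without the 2 farthest mice. Within slides r was 0.655. Without that mouse, with the slide as a block or with array weights, 0 members and 0 genes followed Srebf1. Fasn, Acaca, Scd1 and Acly were not among the genes that followed Srebf1 here.

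Mlxipl was followed by 0 members and 0% of all genes. Its highest member was Acaca, at r = 0.54 and rho = 0.61 (permutation p = 0.0135 and 0.00446, and 0.281 and 0.17 adjusted over the 128 relations), with 0.40 without the 2 farthest mice and 0.43 within slides. Its lowest was Elovl5, at r = -0.52 and rho = -0.57 (permutation p = 0.0198 and 0.00969, adjusted 0.281 and 0.244). That r was -0.66 without the 2 farthest mice and -0.495 within slides. These relations rest on the brightest Mlxipl probe, with which the second correlated at r = -0.07. Pck1 was followed by 0 of 32 members, and by 0.0422% of all genes upwards and 0.0783% downwards. Aacs was its closest member, at r = 0.66 and rho = 0.62 (permutation p = 0.00362 and 0.0053, and 0.232 and 0.17 adjusted), with 0.54 without the 2 farthest mice and 0.62 within slides. Scd2 and Fasn ran against Pck1, at r = -0.51 (rho = -0.45, permutation p = 0.0129 and 0.0403) and r = -0.45 (rho = -0.48, permutation p = 0.0177 and 0.0209), neither past the adjusted permutation test (0.281 for both). Within slides r with Pck1 was -0.70 for Scd2 and -0.45 for Fasn. Scd2 passed limma's adjusted test against Pck1 without slide 1 (r = -0.75) and under 2 normalizations.

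Some other pairs of members varied together. Of the 528 pairs of members, 40 (7.58%) had r above 0.5, where 5.34% of all pairs of genes had, and 18 (3.41%) were below -0.5, where 3.59% of all pairs of genes were. After permutation, 6 pairs had an adjusted p under 0.05 over the 528, all positive, and in 4 of them the rank correlation passed too. Within slides all 6 had r above 0.5. The permutation test was run on pairs of members only, so no share over all pairs of genes stands beside these 6. Agpat2 and Gpd1 correlated at r = 0.83 and rho = 0.68 (permutation p = 5e-05 and 0.00075, adjusted 0.00924 and 0.044). The acyltransferase and the glycerol 3-phosphate enzyme were both highest in normoxia 3 and, within hypoxia, in hypoxia 5, both on slide 1. Their r was 0.73 without normoxia 3, 0.64 without slide 1 and 0.85 within slides.

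Dgat2 joined this pair and Scd2 joined Dgat2. Scd2 with Dgat2 had r = 0.79 and rho = 0.81 (permutation p = 4e-05 and 3e-05, adjusted 0.00924 and 0.0158), and 0.85 without slide 1. Agpat2 with Dgat2 had r = 0.76 and rho = 0.61 (permutation p = 7e-05 and 0.00358, adjusted 0.00924 and 0.104), and 0.62 without the 2 farthest mice. Dgat2 with Gpd1 had r = 0.75 and rho = 0.62 (permutation p = 0.00027 and 0.00356, adjusted 0.0238 and 0.104), and 0.48 without the 2 farthest mice. Agpat2 with Gpd1 was 0.73 by the same measure, and Scd2 with Dgat2 was 0.84. Leaving out normoxia 3 alone lowered Agpat2 with Dgat2 to 0.67 and Dgat2 with Gpd1 to 0.65.

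The remaining pairs past the test were Acaca with Agpat9, and Fads2 with Gyk. Acaca with Agpat9 had r = 0.78 and rho = 0.70 (permutation p = 7e-05 and 0.00049, adjusted 0.00924 and 0.0431). It was 0.64 without normoxia 5 and 0.54 without slide 1, where normoxia 5 and hypoxia 7 hold the lowest Agpat9. Agpat9 itself correlated with the share of spots above background at r = 0.62 and rho = 0.55 (permutation p = 0.00365 and 0.0106, adjusted 0.0614 and 0.118 over 264 relations). Fads2 with Gyk had r = 0.76 and rho = 0.77 (permutation p = 0.00014 and 1e-04, adjusted 0.0148 and 0.0264), and 0.59 within slides. Both of these probes are dim, above background on 10 and 11 of 22 arrays, respectively.

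**Figure D4:**
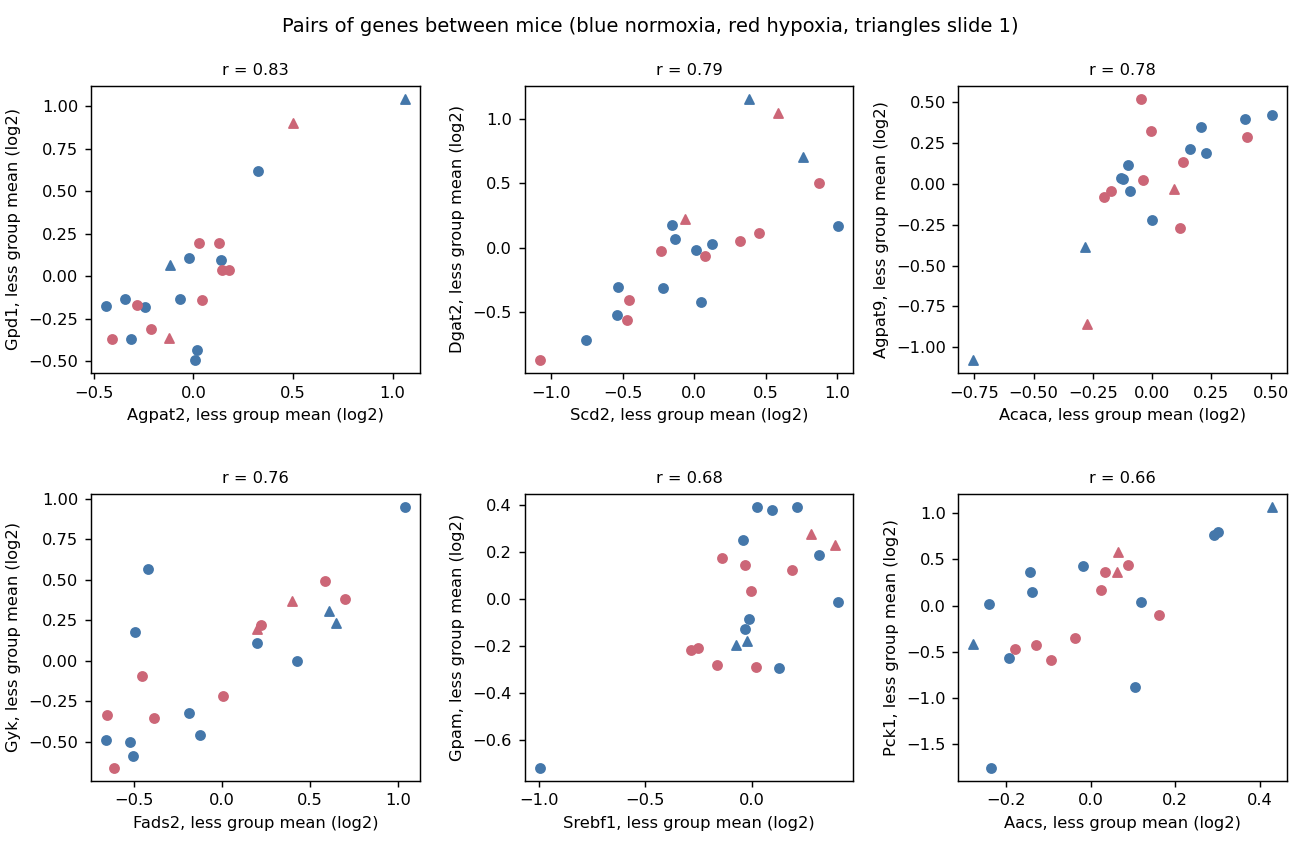
Log2 ratios less group means for 6 pairs of members, 1 point a mouse, blue for normoxia, red for hypoxia, triangles for the 4 arrays of slide 1, with Pearson r above each panel. Agpat2 with Gpd1 (r = 0.83) has its 2 highest points on slide 1, and Srebf1 with Gpam (r = 0.68) has 1 normoxia mouse far below the rest.

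Some members tracked markers of a cell type. In whole tissue, fewer cells of a type and less RNA per cell cannot be told apart. Against 8 measures, 7 marker means and the share of spots above background, 264 relations were computed. Only members were compared, so no share of all genes that track each measure stands beside them. The relations are thus not shown to be particular to these genes. Pck1 tracked the 6 progenitor markers (r = 0.82, rho = 0.80, permutation p = 2e-05 and 3e-05, adjusted 0.00528 and 0.0066) and the 13 adipocyte markers (r = 0.73, rho = 0.78, permutation p = 0.00012 and 5e-05, adjusted 0.0106 and 0.0066). Without the 2 farthest mice these were 0.82 and 0.62, and within slides 0.80 and 0.77. Scd1 (r = 0.74), Thrsp (0.67) and Aacs (0.66) also tracked the adipocyte markers (rho = 0.62, 0.64 and 0.64), with adjusted permutation p of 0.0139, 0.0143 and 0.0143 for Pearson and 0.0583, 0.0554 and 0.0554 for Spearman. Fasn did not pass (r = -0.32, rho = -0.39, permutation p = 0.165 and 0.074).

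Dgat1 tracked the 9 macrophage markers (r = 0.73, rho = 0.69, permutation p = 1e-04 and 0.00075, adjusted 0.0106 and 0.033), and Fads1 ran against them (r = -0.62, rho = -0.71, permutation p = 0.00188 and 0.00069, adjusted 0.0416 and 0.033). Gyk tracked the 4 sperm markers (r = 0.68, rho = 0.76, permutation p = 0.00107 and 0.00016, adjusted 0.0314 and 0.0141), and the mean of the sperm markers ran from -1.60 to 3.26 in normoxia. Scd2 also correlated with the sperm markers (r = 0.68, rho = 0.62, adjusted permutation p = 0.0143 and 0.0554). Slc25a1 tracked the 7 endothelial markers (r = 0.66, rho = 0.61, permutation p = 0.00217 and 0.00587, adjusted 0.0441 and 0.0861) and ran against the 6 mesothelial ones (r = -0.60, rho = -0.62, permutation p = 0.00141 and 0.00251, adjusted 0.0372 and 0.0554). Agpat2 also tracked the endothelial markers (r = 0.61, rho = 0.64, permutation p = 0.00189 and 0.00199, adjusted 0.0416 and 0.0554). Lpin3 ran against the share of spots above background (r = -0.60, rho = -0.67, permutation p = 0.00246 and 0.00108, adjusted 0.0464 and 0.0407). Mogat2 ran against the mesothelial markers (r = -0.63, rho = -0.72, permutation p = 0.00103 and 0.00023, adjusted 0.0314 and 0.0152). With the mean of the adipocyte markers as a further term in limma's fit, 1 member followed Srebf1 between mice and 0 followed Fasn, Mlxipl or Pck1. The part of any of these cells in the members' differences between the groups was not tested.

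**Figure D5:**
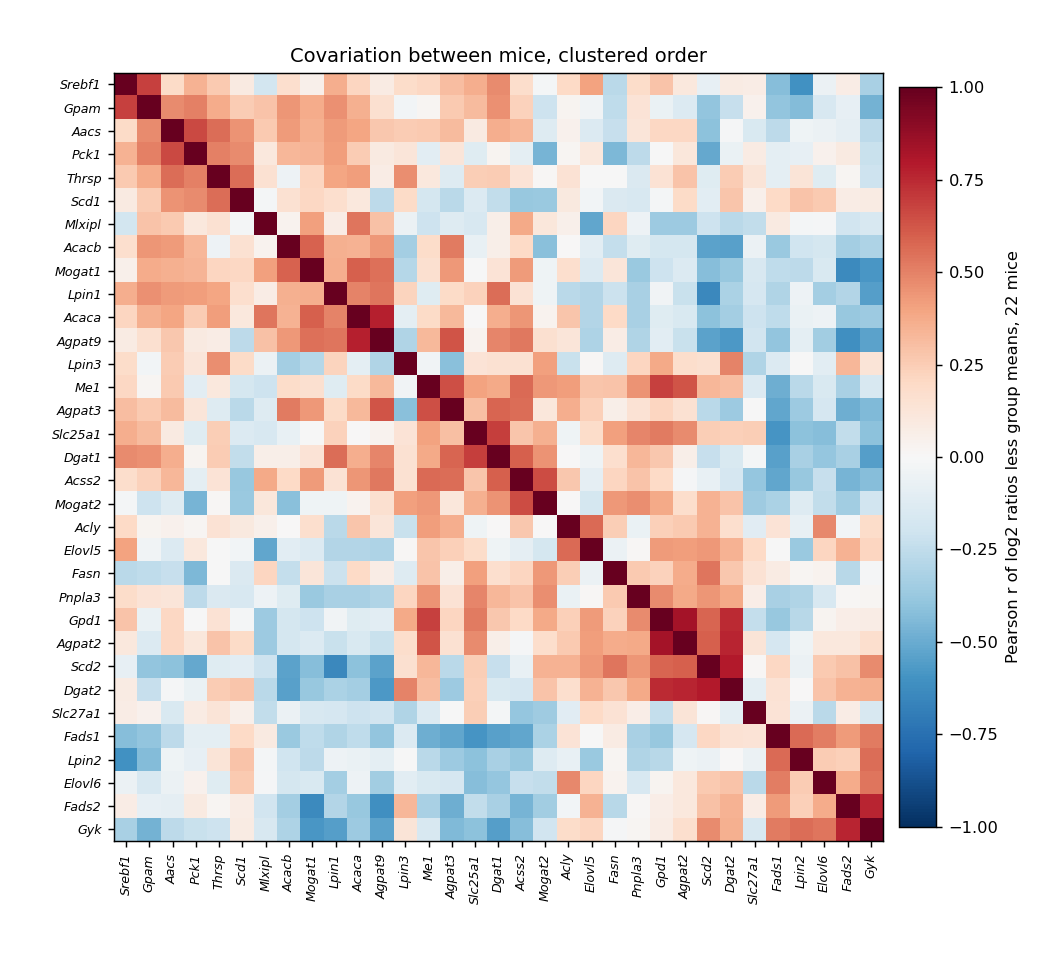
Pearson r between every pair of the 33 tested members over 22 mice, on log2 ratios less group means, in clustered order from -1 (blue) to 1 (red). Gpd1, Agpat2, Scd2 and Dgat2 form one red block, Acaca and Agpat9 another, and Fasn has 1 partner above 0.5, against 5 when values are taken within slides.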

How the data were processed

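Each mouse had 1 array of Agilent's 2-colour kind, with its own total RNA in Cy5 and the equimolar mix of all samples in Cy3 throughout, so there was no dye swap. The image software was Agilent Feature Extraction 10.7.3.1, named in the file headers and in the submitters' processing notes. The deposited mean and background signals are intensity values as scanned. The deposited log10 ratio of Cy5 over Cy3 was, per the file headers, background-subtracted and dye-normalized by that software. The deposited value table holds log2 levels with a median of 6.2986 on every array, and its columns lay closer to Cy5 than to Cy3 on 20 of 22 arrays. How it was normalized is not stated in these sources.

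Here, normexp (offset 50) and loess were applied in limma 3.58.1 under R 4.3.3, with control spots at weight 0. Outlier-flagged spots were dropped; saturated ones stayed in. The offset draws ratios of dim probes towards 0. Probes entered the fit if well above background in Cy5 on 10 of 22 arrays or more, with at least 2 values a group. The brightest probe stood for its gene. Names were updated through RefSeq (GRCm38.p6): 27235 probes matched by accession, 3581 by symbol and 565 by synonym, and 24300 kept the file's name.

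The limma fit (lmFit, eBayes) had no term but group. Benjamini-Hochberg adjustment ran over all 16602 genes, with a threshold of 0.05. Covariation between mice used the log2 ratios less their group means. It was tested by adding 1 gene's ratio as a term to the limma fit over all genes, and for pairs by two-sided permutation tests with 100000 resamples within groups. The permutations do not hold the slide fixed, so values within slides are given for some of the relations. For the marker relations they are given for Pck1 only. The rule for genes described in full took Fasn, Acaca, Acly, Scd1, Elovl6, Srebf1, Mlxipl, Dgat2, Pck1, Gpam, Lpin1 and the 8 members with the smallest p. From the other pathway lists it took genes with an unadjusted p under 0.05, and from all other genes the 10 closest to Fasn. The scripts were tested on simulated data. Members, lists and tests were chosen with earlier results of these data known. Alternatives were the normalization, the filter, the deposited table, slides, array weights, probe choice, a replicate block and each mouse left out. The number of arrays limits the precision.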

Additional observations from a re-analysis of the deposited data

Results flagged for a closer look

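In Gpd1, the glycerol 3-phosphate dehydrogenase, the mouse hypoxia 5 stood apart from its group, with a log2 ratio of 0.86 against -0.41 to 0.16 in the other 9 hypoxia mice. Its gap to the nearest mouse took 0.554 of the range of the group, past Dixon's critical value for 10 samples. The array lies on slide 1, where the share of spots above background was lowest. All 33 members were looked at in this way, and about 1 in 20 would be picked out by chance. The check was run on the hypoxia mice only. Values of the 12 normoxia mice, such as the -1.12 of Srebf1 in normoxia 6, were not looked at in this way. No cause was tested.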

How the results depend on the processing

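No member passed the adjusted threshold under any alternative: 13 other settings, each of 22 mice left out in turn, and, chosen after seeing the data, every tested probe. The median difference of the members stayed between -0.15 (deposited value table) and 0.0034 (replicate block), and between -0.07 and -0.03 with each mouse left out. In the deposited value table the median over all genes was -0.04. With the replicate block 18 members lay above 0 and 15 below, where the main fit had 12 above and 21 below. Between 0 and 6 members changed sign under other settings, and 0 to 5 with a mouse left out. Over all genes the count past the threshold was 1 with Feature Extraction's log ratio, with scaled ratios and with Cy5 above background on all 22 arrays, 2 with the slide as a fixed block and without slide 1, 3 with quantile normalization and 4 with array weights, and 0 to 3 with each mouse left out.

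Members following Srebf1 numbered 5 with quantile normalization (4022 genes), 2 without slide 1, and 0 with scaled ratios, the slide as a fixed block, array weights and the replicate block, and 0 to 2 with each mouse left out. Members following Pck1 numbered 1 with Feature Extraction's log ratio, with quantile normalization and without slide 1. In the deposited value table, which holds levels and no ratios, 29, 30, 30 and 28 of 32 members followed Fasn, Mlxipl, Pck1 and Srebf1, but so did 12894, 13336, 12910 and 11459 of all genes, and 379 of 528 pairs had r above 0.5. That count of pairs was 79 with Feature Extraction's log ratio, 64 with quantile normalization, 63 with the slide as a fixed block, 81 with the replicate block, and 35 to 51 with each mouse left out. The cause was not tested.

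Replicate numbers 1 to 10 occur in both groups. Same-numbered mice deviated with correlations from -0.474 to 0.245. Differently numbered mice were not compared in this way, so the values cannot settle whether the numbers pair the mice. With the replicate block 0 members and 0 genes passed. The number of arrays and, on slide 1, the low signal over background limit the precision.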
